A study of Mus musculus with 26 samples.

Results

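The effect of a high fat diet on the liver's main cell, the hepatocyte, was measured by RNA sequencing of hepatocytes isolated from mice fed a 60% high fat diet and from mice fed chow. The libraries were chosen by their labels, which place 2 high fat diet libraries and 2 chow libraries in this experiment, 4 of the 26 libraries of the series. All 4 came from wild-type C57BL/6J mice aged 16 weeks that had been fasted for 10 h, so the diet is the labelled difference between the groups. How long the diet was fed, the fat source, the sex of the mice and the way the hepatocytes were separated are not given in the sources used here. The rest of the series is whole liver, from mice given TCPOBOP or corn oil, mice lacking Fxr and Shp with their wild type, regenerating and sham-operated livers, and mice with floxed Fxr and Shp fed cholic acid or chow. Each group held 2 libraries, and no label says whether they came from separate mice, so the p-values measure only the spread between these samples.

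Hepatocytes take up, burn, store and export fat, make cholesterol and bile acids, and detoxify drugs. Cholesterol synthesis is set by the transcription factor SREBP2, which is active when the cell's sterol content is low, and fatty acid synthesis by SREBP1c, which follows insulin. Growth hormone adds a further layer of control, since its release differs between the sexes and keeps many liver genes at different levels in male and female mice.

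Total gene counts were 58583685 and 66394311 in the chow libraries and 70367874 and 70026691 in the high fat diet libraries. Levels are given as CPM (the count scaled to a fixed library size, with TMM factors), and 3 counts correspond to 0.0403 to 0.0535 CPM. Replicates correlated at r = 0.991 for chow and 0.992 for high fat diet across genes on the log2 CPM scale. Reads aligned to more than 1 place made up 24.6% and 23.8% of the chow reads and 19% and 19.3% of the high fat diet reads. Hepatocyte markers were abundant in every library. Alb, encoding albumin, stood at 63610 and 67840 CPM in chow and at 67000 and 68140 CPM on the high fat diet. Genes of the Y chromosome were present in all 4 libraries (Ddx3y, 5444 to 6269 counts), and the female-specific Xist had 3 to 8 counts.

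Of 13892 genes tested, 3333 changed on the high fat diet, or 24%, by edgeR's quasi-likelihood test at a Benjamini-Hochberg adjusted p under 0.05. Of these, 1789 were raised (12.9% of the genes tested) and 1544 were lowered (11.1%). The rises were larger than the falls, with a median log2 fold change of 1.22 against -0.56. In each of the 3333 called genes the libraries of the 2 diets did not overlap, so that a gap between the diets adds nothing to a call. At least 2-fold changes numbered 1421, made up of 1076 rises and 345 falls. The number called fell to 1735 when all 26 libraries shared 1 estimate of the spread, to 1141 without high fat diet replicate 1 and to 1793 without high fat diet replicate 2. In the 26-library fit 68.4% of the calls were rises, against 53.7% in the fit of the 4 libraries. Of 211 genes examined by name, 61 lost their call in the 26-library fit with the direction kept.

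**Figure D1:**
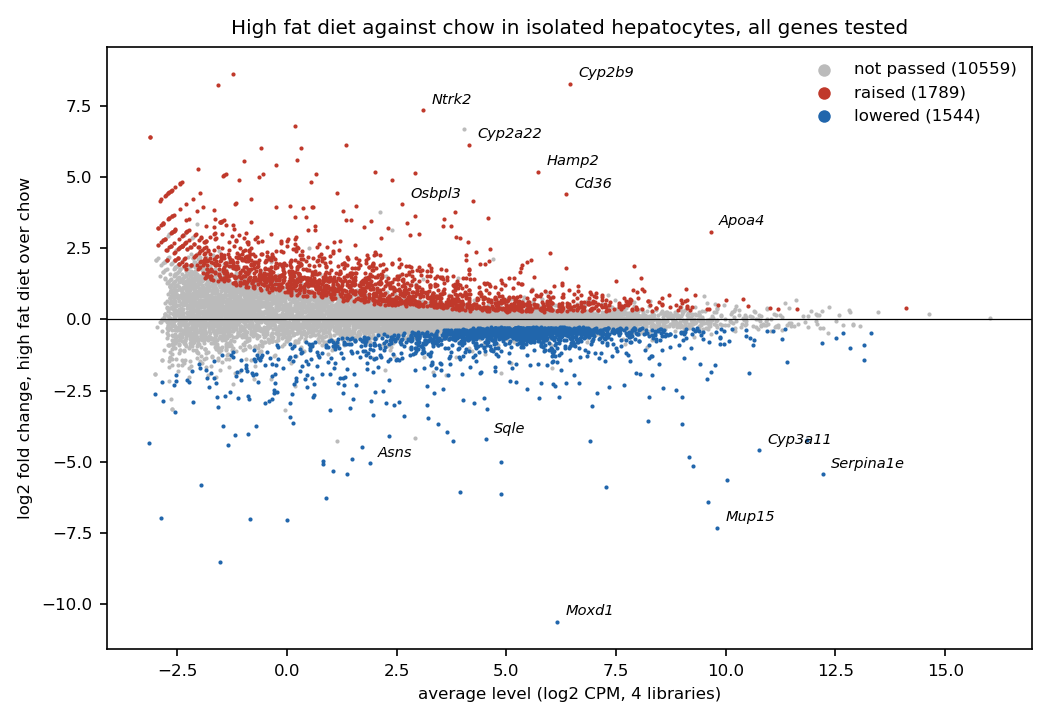
Log2 fold change of each of the 13892 genes tested (high fat diet over chow, vertical axis) against its average level in log2 CPM over the 4 libraries (horizontal axis), with 1789 raised genes in red, 1544 lowered genes in blue and the rest in grey. Cyp2b9 stands highest among the labelled genes and Moxd1 lowest, and the large falls include abundant transcripts such as Serpina1e.

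Among the genes with at least 1 log2 CPM on average, the 12 largest rises included P450 enzymes, receptors and an uptake protein. Ntrk2, which encodes the neurotrophin receptor TrkB, stood at 0.0892 and 0.110 CPM in chow and at 8.58 and 25 CPM on the high fat diet. Cd36, the fatty acid translocase, went from 3.43 and 11.3 CPM to 203 and 110 CPM, a 21.2-fold higher mean (log2 fold change 4.40 ± 0.60 SE, adjusted p = 0.00882). Hamp2, a hepcidin paralogue, went from 1.87 and 3.66 CPM to 71.1 and 133 CPM. For each of these 3 genes both high fat diet libraries lay above both chow libraries, as in every gene called raised. The other rises of this group were Cyp2a22, the pseudogene Mrgprb11-ps, the class I histocompatibility gene H2-Q1, Themis, Stap1, Ly6d, the desmosomal cadherin Dsg1c and the oxysterol-binding protein gene Osbpl3, at log2 fold changes of 4.04 to 6.14.

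The largest falls were those of Moxd1, a monooxygenase-like gene, and of secreted proteins. Moxd1 stood at 106 and 179 CPM in chow and at 0.0941 and 0.0828 CPM on the high fat diet. Serpina1e, an alpha-1-antitrypsin paralogue, went from 6770 and 11740 CPM to 192 and 237 CPM (log2 fold change -5.43 ± 0.32 SE, adjusted p = 0.00102). Asns, asparagine synthetase, went from 7.19 and 7.32 CPM to 0.256 and 0.179 CPM (-5.05 ± 0.22, adjusted p = 0.000588). These groups did not overlap. Cspg5 and Cyp2c40 had log2 fold changes of -5.44 and -5.32, and the other 7 of the 12 largest falls were major urinary protein genes.

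Close relatives in the Cyp2b family moved in opposite directions, which is why their promoters are shown. Cyp2b9 stood at 0.178 and 0.899 CPM in chow and at 201 and 147 CPM on the high fat diet, and Cyp2b13 at 0 and 0.0315 CPM against 1.68 and 0.704 CPM. Cyp2b10, the classical target of the xenobiotic receptor CAR, went the other way, from 3.89 and 5.93 CPM to 0.350 and 0.787 CPM (log2 fold change -3.11 ± 0.41 SE, adjusted p = 0.00808). No library of 1 diet overlapped with the other for any of the 3. Cyp2b10 did not pass in the 26-library fit (adjusted p = 0.257). The genes lie close to each other on chromosome 7, Cyp2b10 at 25897658 to 25926624, Cyp2b13 at 26061388 to 26096197 and Cyp2b9 at 26173350 to 26210661. The 150 bases before each annotated start are given 5′ to 3′ from RefSeq (GRCm38.p6, plus strand), with capitals at bases that differ from Cyp2b9 or have no counterpart in it. The start is that of the listed promoter, which can lie inside a gene span that covers several transcripts.
Cyp2b9, chr7:26173259-26173408: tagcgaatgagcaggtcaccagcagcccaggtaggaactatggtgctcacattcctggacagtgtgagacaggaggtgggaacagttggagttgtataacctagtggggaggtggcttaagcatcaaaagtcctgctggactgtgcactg
Cyp2b13, chr7:26061345-26061494: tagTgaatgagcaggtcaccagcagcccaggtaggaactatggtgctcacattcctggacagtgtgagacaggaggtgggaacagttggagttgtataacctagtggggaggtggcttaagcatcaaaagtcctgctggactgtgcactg
Cyp2b10, chr7:25897508-25897657: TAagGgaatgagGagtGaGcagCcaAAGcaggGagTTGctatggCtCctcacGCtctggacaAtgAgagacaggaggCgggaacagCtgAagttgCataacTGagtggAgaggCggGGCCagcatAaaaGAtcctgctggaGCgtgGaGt
In these windows Cyp2b13 shared 99.3% of its bases with Cyp2b9 (149 of 150) and Cyp2b10 shared 74.0% (111 of 150). The identity is that of the reference sequence and says nothing on binding.

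The major urinary protein genes, whose products male liver secretes in quantity as pheromone carriers, had the lowest median of the 29 gene lists. All 19 tested major urinary protein genes fell, with a median log2 fold change of -4.23 against 0.01 for all genes tested. Falls made up 11.1% of all genes tested. In the 26-library fit 14 genes of the family fell. Mup7 went from 6959 and 7025 CPM in chow to 450 and 297 CPM on the high fat diet, and Mup20, which encodes the male pheromone darcin, from 4234 and 3760 CPM to 1658 and 1169 CPM. Mup3 fell less, from 11430 and 12220 CPM to 6578 and 6021 CPM (log2 fold change -0.91 ± 0.10 SE, adjusted p = 0.00586), and the smallest fall was that of Mup2, by 0.57. Mup2, Mup3 and Mup20 did not pass in the 26-library fit (adjusted p = 0.343, 0.276 and 0.0697), nor did Mup2 without high fat diet replicate 1 (-0.57, adjusted p = 0.0551). Many of these genes are near-identical copies, so single members are uncertain. The share of reads aligned to more than 1 place was also lower on the high fat diet, and its part in the result was not tested.

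Promoters of the family are shown because its members fell together. The 150 bases before the start are given 5′ to 3′ on the minus strand of chromosome 4 (RefSeq, GRCm38.p6), with capitals at bases that differ from Mup15 or have no counterpart in it.
Mup15, chr4:61439705-61439854: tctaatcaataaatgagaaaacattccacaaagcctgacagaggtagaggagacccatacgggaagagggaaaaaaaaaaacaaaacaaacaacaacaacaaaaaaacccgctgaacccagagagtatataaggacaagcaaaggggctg
Mup17, chr4:61595833-61595982: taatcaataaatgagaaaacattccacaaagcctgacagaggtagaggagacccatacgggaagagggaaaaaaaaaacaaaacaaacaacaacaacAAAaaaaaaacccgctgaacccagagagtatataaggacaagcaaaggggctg
Mup18, chr4:61674095-61674244: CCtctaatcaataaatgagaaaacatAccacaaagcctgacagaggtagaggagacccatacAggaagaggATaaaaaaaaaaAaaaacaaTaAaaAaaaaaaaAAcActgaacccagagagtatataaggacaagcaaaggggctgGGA
Mup17 shared 98.0% of its bases with Mup15 and Mup18 shared 89.3%. Mup15 fell from 1545 and 1995 CPM to 15.4 and 6.76 CPM, Mup17 from 1297 and 1781 CPM to 27.6 and 8.93 CPM, and Mup18 from 47.9 and 68.7 CPM to 1.09 and 0.566 CPM.

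Of 17 other genes that are higher in male mouse liver, 14 fell and 1 rose, with a median log2 fold change of -2.48. That is 88.2% called, against 24% of all genes tested. Like the other gene lists, this list was chosen with earlier results of these data known. Its counts are therefore no independent result. Hsd3b5, a steroid dehydrogenase, stood at 265 and 194 CPM in chow and at 9.86 and 14 CPM on the high fat diet. Selenbp2, a selenium-binding protein gene, went from 1352 and 861 CPM to 34.2 and 42.9 CPM (log2 fold change -4.84 ± 0.27 SE, adjusted p = 0.000901). Cyp7b1, the oxysterol 7-alpha-hydroxylase, went from 1211 and 705 CPM to 80.2 and 71.1 CPM (-3.66 ± 0.27, adjusted p = 0.00208). The fatty acid elongase Elovl3, the P450 gene Cyp4a12b, the glucuronosyltransferase Ugt2b38 and the complement gene C6 fell by 2.39, 2.72, 4.28 and 2.71 on the log2 scale. Hsd3b2 was the member that rose, from 49.5 and 49.1 CPM to 65.5 and 80.4 CPM, and did not pass without high fat diet replicate 2 (0.40, adjusted p = 0.0606). Bcl6, a repressor of female genes in male liver, gave 116 and 52.9 CPM against 49.9 and 39.8 CPM and did not pass (adjusted p = 0.111). Without chow replicate 2 its log2 fold change was -1.38 (adjusted p = 0.00139).

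Genes higher in female liver moved the other way, though not as 1 block. Of 35 such genes 25 were tested, 12 rose and 4 fell, and the median log2 fold change was 1.12. In the 26-library fit 8 rose. Calls made up 64% of the 25 in the fit of the 4 libraries, against 24% of all genes tested. This list was also chosen with earlier results of these data known. Abcd2, a peroxisomal transporter of very long chain fatty acids, went from 3.27 and 4.20 CPM to 46.9 and 41.2 CPM (log2 fold change 3.56 ± 0.15 SE, adjusted p = 0.000517). Slc22a27, an organic anion transporter, went from 0.0178 and 0.0158 CPM, or a single read in each chow library, to 2.22 and 1.96 CPM. Cyp2a4 rose from 0.196 and 0.599 CPM to 5.38 and 3.67 CPM. The members that fell were Cyp2b10, Cyp2c40, Cyp2c69 and Lifr, the receptor of leukaemia inhibitory factor, which went from 540 and 522 CPM to 152 and 207 CPM. Cux2, a female-specific repressor, stood at 0.0828 to 0.202 CPM in the 4 libraries, with overlapping groups. Cyp2c69 did not pass without high fat diet replicate 1 or 2 (-4.82 and -3.60, adjusted p = 0.0674 and 0.0757).

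**Figure D2:**
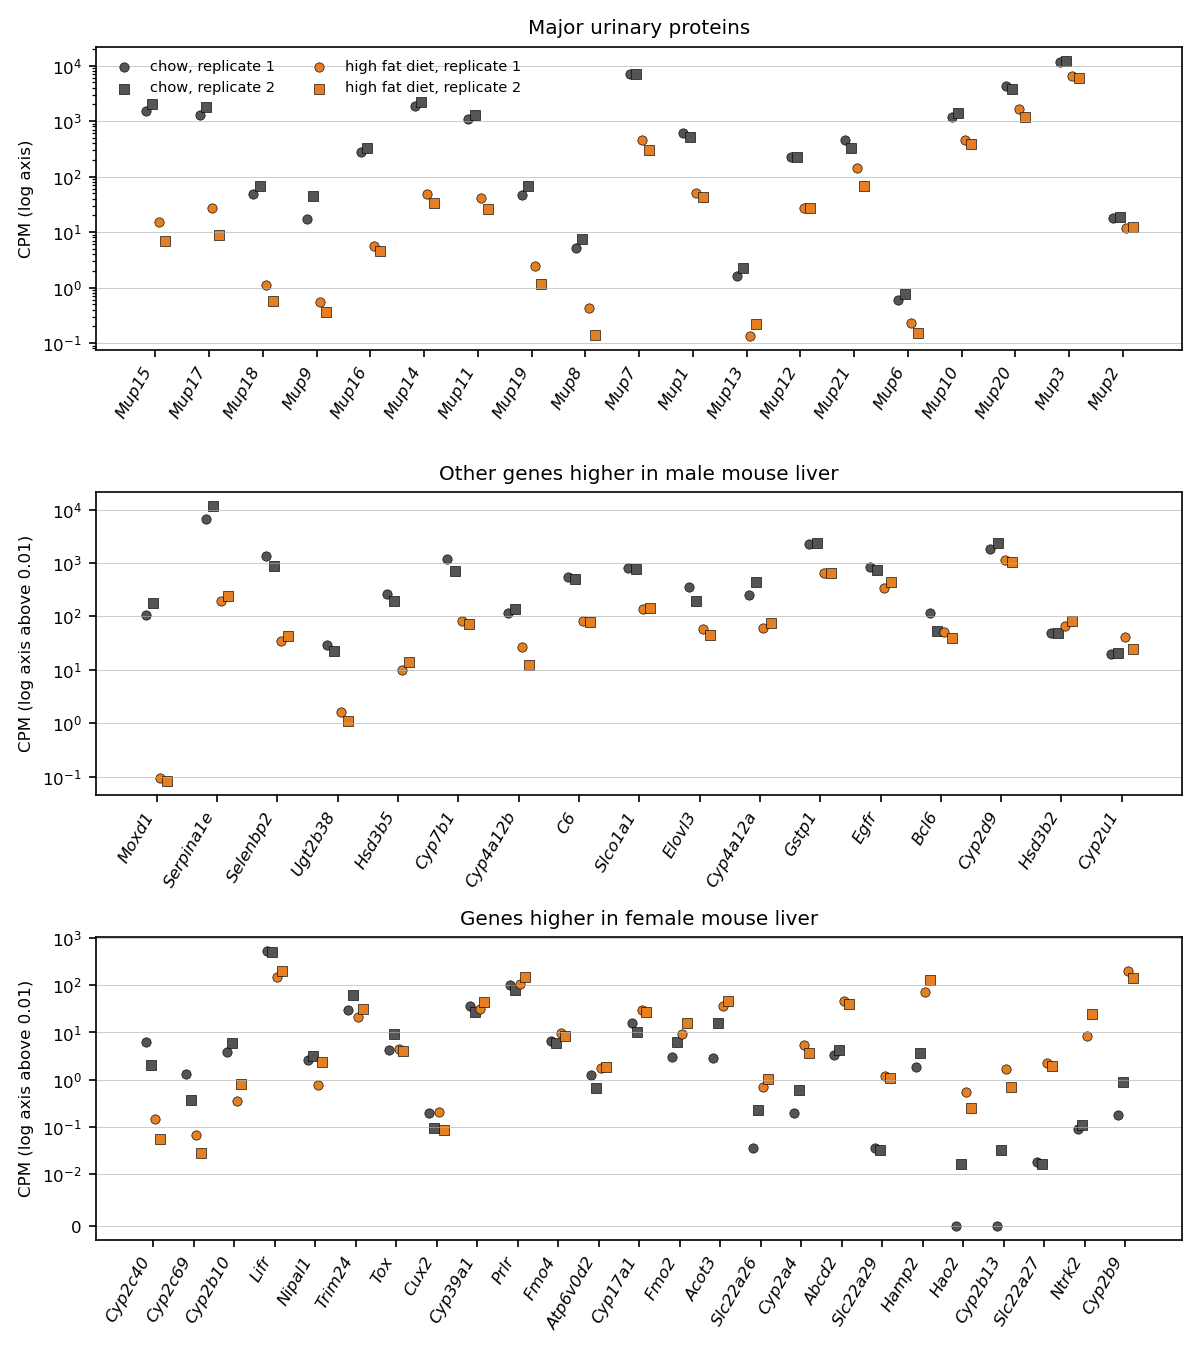
CPM in each library (log axes, linear below 0.01 in the lower panels) for the 19 tested major urinary protein genes, 17 other genes higher in male liver and 25 genes higher in female liver, ordered by log2 fold change, with chow in grey and high fat diet in orange. All orange points lie under the grey ones in the top panel, and in the bottom panel the members span falls at the left and rises at the right.

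Few components of the growth hormone pathway itself passed the test. Of 24 tested genes of the growth hormone, STAT5 and Igf1 axis, 2 rose and 2 fell, and the median log2 fold change was 0.04. That is 16.7% called, against 24% of all genes tested. The 26-library fit gave 1 rise and 1 fall. Ghr, the growth hormone receptor, gave 610 and 657 CPM against 678 and 733 CPM, and Igf1 713 and 632 CPM against 571 and 759 CPM, and neither passed. Socs2, a STAT5 target that dampens the signal, gave 18.3 and 6.84 CPM in chow and 3.64 and 6.36 CPM on the high fat diet, and passed only without chow replicate 2 (log2 fold change -1.88, adjusted p = 0.00592). Socs3 and Bcl6 had log2 fold changes of -0.64 and -0.92 and did not pass. Their chow replicates lay far apart, at 189 and 94.5 CPM and at 116 and 52.9 CPM. Igfbp2, a binding protein of the insulin-like growth factors, fell from 903 and 618 CPM to 329 and 268 CPM. Igfbp3 rose from 0.607 and 0.347 CPM to 2.08 and 1.66 CPM, but in the chow hepatocytes it was at most 0.664 CPM on the 26-library scale against at least 9.20 CPM in every whole-liver control, and it did not pass without high fat diet replicate 1 (1.80, adjusted p = 0.0567).

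Most tested genes of cholesterol synthesis fell, though not every step. The list of cholesterol synthesis and SREBP2 targets also held sterol exporters and the ligase gene Mylip. Of its 34 tested genes, 22 fell and 1 rose, with a median log2 fold change of -0.81. That is 67.6% called, against 24% of all genes tested. Sqle, squalene epoxidase, went from 45.0 and 42.6 CPM in chow to 3.54 and 1.20 CPM on the high fat diet (log2 fold change -4.21 ± 0.44 SE, adjusted p = 0.00482). Idi1, the isopentenyl diphosphate isomerase, went from 29.9 and 26.7 CPM to 4.12 and 3.81 CPM (-2.83 ± 0.12, adjusted p = 0.000508). Fdps, farnesyl diphosphate synthase, stood at 2.86 and 2.49 CPM against 0.403 and 0.442 CPM, and the lanosterol demethylase Cyp51 at 116 and 115 CPM against 25.1 and 20.4 CPM.

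Hmgcs1, which makes HMG-CoA, fell less, by 0.65 on the log2 scale. Regulators were among the lowered genes. Srebf2, which encodes SREBP2, went from 60.0 and 52.1 CPM to 36.5 and 32.8 CPM, and Insig1, which holds SREBP2 in the endoplasmic reticulum, from 211 and 235 CPM to 79.0 and 85.1 CPM. Mylip, an E3 ubiquitin ligase gene outside cholesterol synthesis, was the member that rose, from 2.32 and 2.26 CPM to 5.10 and 5.41 CPM. The sterol exporters Abcg5 and Abcg8, the first enzyme Acat2 and the late enzymes Ebp and Sc5d did not pass, with log2 fold changes of -0.15 to 0.03. In the 26-library fit 9 members fell in place of 22, and Hmgcs1 and Insig1 were among those that did not pass (adjusted p = 0.554 and 0.17).

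**Figure D3:**
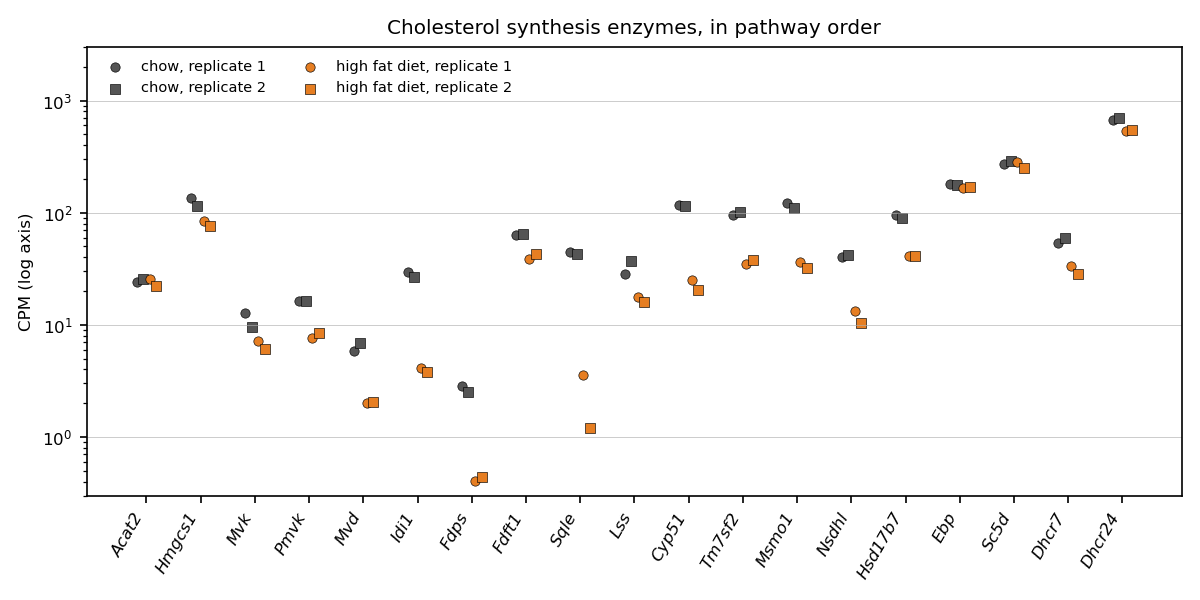
CPM (log axis) of 19 enzymes of cholesterol synthesis from acetyl-CoA at the left to cholesterol at the right, with chow libraries in grey and high fat diet libraries in orange. Sqle, Idi1 and Fdps show the widest gaps between the diets, while Acat2, Ebp and Sc5d overlap or nearly touch.

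Promoters of 4 lowered enzymes are shown because these genes fell together. The 150 bases before the annotated start are given 5′ to 3′ (RefSeq, GRCm38.p6, plus strand except Cyp51, which is on the minus strand). Capitals mark the sterol regulatory element TCACNCCAC and the CCAAT box, searched on both strands, so that ATTGG is the CCAAT box of the other strand.
Hmgcs1, chr13:119690201-119690350: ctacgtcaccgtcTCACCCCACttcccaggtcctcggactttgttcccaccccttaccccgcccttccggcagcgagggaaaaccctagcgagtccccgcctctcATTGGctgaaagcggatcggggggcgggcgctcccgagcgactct
Idi1, chr13:8885456-8885605: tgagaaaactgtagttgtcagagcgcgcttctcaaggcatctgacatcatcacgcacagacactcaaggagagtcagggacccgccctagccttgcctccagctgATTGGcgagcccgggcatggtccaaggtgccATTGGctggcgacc
Lss, chr10:76531455-76531604: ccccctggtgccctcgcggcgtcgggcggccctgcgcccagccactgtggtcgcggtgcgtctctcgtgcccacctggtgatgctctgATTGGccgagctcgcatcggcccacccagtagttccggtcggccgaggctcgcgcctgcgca
Cyp51, chr5:4104698-4104847: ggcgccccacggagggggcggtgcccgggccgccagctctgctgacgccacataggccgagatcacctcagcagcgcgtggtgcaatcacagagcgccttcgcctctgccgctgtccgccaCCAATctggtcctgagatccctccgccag
Of the 35 list members 25 had a promoter entry, among them 15 of the 22 lowered members. In the 250 bases before the start, 21 of the 25 held a CCAAT box, including all 15 lowered members with an entry. Of 10278 tested genes with an entry, 40.5% held one. The motif TCACNCCAC was found in 1 of the 25, Hmgcs1, and in 1.33% of the tested genes. A match is only a match of letters in this window.

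Genes of fat uptake and storage rose more often than they fell. Of 41 tested genes of lipid droplets and fat uptake, 14 rose and 7 fell, with a median log2 fold change of 0.19. That is 51.2% called, against 24% of all genes tested. Without high fat diet replicate 1 the counts were 7 and 4. Pparg, a nuclear receptor that drives fat storage, went from 4.09 and 4.21 CPM in chow to 9.37 and 7.42 CPM on the high fat diet (log2 fold change 1.02 ± 0.16 SE, adjusted p = 0.0121). Its droplet target Cidec went from 3.93 and 3.14 CPM to 14.9 and 10.1 CPM (1.83 ± 0.23, adjusted p = 0.00739), and Mogat1, a monoacylglycerol acyltransferase, from 0.0357 and 0.300 CPM to 2.70 and 2.66 CPM. Pparg missed the threshold without high fat diet replicate 1 (log2 fold change 0.84, adjusted p = 0.051).

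Hsd17b13, a droplet-bound dehydrogenase, rose from 297 and 410 CPM to 762 and 720 CPM. The intestinal-type fatty acid binding protein gene Fabp2 rose from 50.4 and 42.0 CPM to 107 and 109 CPM. The general droplet coats Plin2 (452 and 402 CPM against 671 and 479 CPM) and Plin4 (21.6 and 18 CPM against 31.6 and 25 CPM) did not pass in the fit of all 4 libraries, nor did the triglyceride synthases Dgat1 and Dgat2. Plin4 passed with DESeq2 (adjusted p = 0.0252) and without chow replicate 1 or high fat diet replicate 2 (adjusted p = 0.0397 and 0.0331), and Plin2 without high fat diet replicate 2 (adjusted p = 0.0275). The falls included Lpin1, a phosphatidate phosphatase and transcriptional coactivator, from 1060 and 735 CPM to 71.1 and 199 CPM. Fabp5 went from 26.8 and 20.1 CPM to 1.60 and 1.42 CPM (log2 fold change -3.95 ± 0.19 SE, adjusted p = 0.00076). Lpin1 did not pass in the 26-library fit (adjusted p = 0.109). Fabp4 rose from 0.482 and 0.710 CPM to 3.13 and 1.84 CPM and Mfge8 from 0.999 and 1.14 CPM to 5.78 and 3.71 CPM. In chow hepatocytes both were under 50% of the lowest of the 11 whole-liver controls (2 corn oil, 3 wild type, 3 sham and 3 floxed chow), and Fabp4 did not pass without high fat diet replicate 1 (1.61, adjusted p = 0.0544). Cidea was too low to be tested. A mixed panel of 45 tested genes often followed in fatty liver was drawn from these and other lists. It had 9 rises and 13 falls, or 48.9% called, with a median of -0.10.

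Export genes were mixed. Of 24 apolipoprotein and lipoprotein assembly genes 4 rose and 6 fell, with a median log2 fold change of 0.12. Calls made up 41.7% of them, against 24% of all genes tested. Apoa4, an apolipoprotein known to rise with hepatic fat, went from 181 and 160 CPM to 1811 and 1085 CPM (log2 fold change 3.09 ± 0.26 SE, adjusted p = 0.00306). Apoa1, the main protein of HDL, fell from 7702 and 6649 CPM to 4906 and 4170 CPM, and Mttp, which loads lipid on apolipoprotein B, from 497 and 500 CPM to 344 and 348 CPM. Sort1, a sorting receptor for apolipoprotein B, fell from 35.0 and 31.0 CPM to 10.4 and 7.47 CPM. Apob itself gave 6924 and 6983 CPM against 6118 and 6146 CPM and did not pass (adjusted p = 0.188). The calls for Apoa1 and Mttp were lost without high fat diet replicate 2 (-0.55, adjusted p = 0.0548) and replicate 1 (-0.52, adjusted p = 0.0508).

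Among fatty acid synthesis genes Srebf1 rose, while Fasn and Acacb fell. Srebf1 rose from 154 and 187 CPM to 309 and 254 CPM (log2 fold change 0.72 ± 0.14 SE, adjusted p = 0.0207). Fasn, fatty acid synthase, fell from 206 and 277 CPM to 99.4 and 100.1 CPM (-1.27 ± 0.15, adjusted p = 0.00635), and Acacb, the acetyl-CoA carboxylase that controls fat burning, from 65.2 and 58.7 CPM to 25.1 and 27.0 CPM. Scd1, the stearoyl-CoA desaturase, gave 2090 and 2707 CPM against 3128 and 4545 CPM and did not pass (adjusted p = 0.0659), though it did with DESeq2's Wald test (adjusted p = 0.00769). Pklr, liver pyruvate kinase, rose from 129 and 226 CPM to 340 and 401 CPM, and this call was lost with DESeq2 (adjusted p = 0.0511) and without either high fat diet library (adjusted p = 0.0631 and 0.0898). Of the 25 tested genes of this list 4 rose and 5 fell, with a median log2 fold change of -0.05. That is 36% called, against 24% of all genes tested. The rises numbered 10 without chow replicate 2 and 2 without high fat diet replicate 1, and the falls 3 and 2 without high fat diet replicates 1 and 2. Srebf1 did not pass in the 26-library fit (adjusted p = 0.191) or without high fat diet replicate 1 (adjusted p = 0.068).

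Genes of fatty acid oxidation and ketone synthesis had a median change near 0. Of 50 genes tested 7 rose and 6 fell, and the median log2 fold change was 0.01. At 26% called, the list was near the 24% of all genes tested. Cpt1a, the gate of mitochondrial fat entry, gave 922 and 864 CPM against 882 and 819 CPM and did not pass. Ppara, the receptor that drives this programme on fasting, gave 202 and 208 CPM against 188 and 177 CPM. The hormone gene Fgf21 (5.50 and 3.17 CPM against 3.95 and 3.60 CPM) and Ppargc1a (14.4 and 10.8 CPM against 14.6 and 22.9 CPM) did not pass. Among the members that changed, the thioesterase Acot2 rose from 4.28 and 4.37 CPM to 16.0 and 14.1 CPM and Hadh from 260 and 299 CPM to 477 and 459 CPM. Angptl4, an inhibitor of lipoprotein lipase, fell from 286 and 290 CPM to 160 and 173 CPM, and the omega-hydroxylase Cyp4a31 fell by 2.16 on the log2 scale. Cyp4a14 gave 1085 and 467 CPM against 1116 and 883 CPM, and its direction turned without chow replicate 2. Of 46 nuclear genes of mitochondrial respiration 0 were called by edgeR and 0 by DESeq2, with 2 at an unadjusted p under 0.05.

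The P450 families that handle drugs were mostly lowered. Of 41 tested Cyp1 to Cyp3 genes 21 fell and 7 rose, with a median log2 fold change of -0.50. The share called was 68.3%, against 24% of all genes tested. Cyp3a11, a main drug-metabolising enzyme, stood at 2963 and 3665 CPM in chow and at 128 and 145 CPM on the high fat diet, and the caffeine-metabolising Cyp1a2 at 662 and 606 CPM against 130 and 110 CPM. Cyp2c29 fell from 1150 and 1332 CPM to 314 and 271 CPM, and Cyp2e1 from 12200 and 11570 CPM to 7977 and 8969 CPM. The call for Cyp2e1 was lost in the 26-library fit (adjusted p = 0.213) and with replicate number as a block (-0.49, adjusted p = 0.0683). Cyp2e1 did not pass without chow replicate 1 (-0.46, adjusted p = 0.0647) or high fat diet replicate 1 (-0.41, adjusted p = 0.0927). The rises were those of Cyp2a4, Cyp2a12, Cyp2a22, Cyp2b9, Cyp2b13, Cyp2c38 and Cyp2c39, of which Cyp2a12 lost its call without any 1 of the 4 libraries (adjusted p = 0.0583 to 0.131). The receptors that control these genes, Nr1i2 (PXR, log2 fold change -0.35) and Nr1i3 (CAR, 0.25), did not pass in the fit of all 4 libraries. Nr1i2 passed with DESeq2 (-0.37, adjusted p = 0.0314) and without high fat diet replicate 2 (-0.49, adjusted p = 0.0413). Nr1i3 passed as a rise without chow replicate 2 (0.63, adjusted p = 0.0456), and its sign turned without chow replicate 1 (-0.055). In the 26-library fit 9 members fell and 4 rose, and 11 fell without high fat diet replicate 1. Reads of near-identical Cyp2c and Cyp3a copies may have been discarded, so single members are uncertain.

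Conjugation enzymes changed in both directions. Of 44 tested Ugt, Sult and Gst genes 11 rose and 12 fell, with a median log2 fold change of -0.09. Calls made up 52.3% of them, against 24% of all genes tested. The rises included 4 sulfotransferase and 3 alpha-class glutathione transferase genes, while another sulfotransferase gene, Sult2a8, fell from 1193 and 1068 CPM to 656 and 803 CPM (adjusted p = 0.0221). Gsta1 went from 0.357 and 0.867 CPM to 8.61 and 4.95 CPM, and Sult1e1, the estrogen sulfotransferase, from 0.196 and 0.189 CPM to 1.28 and 3.46 CPM. The pi-class gene Gstp1 fell from 2286 and 2410 CPM to 635 and 644 CPM (log2 fold change -1.88 ± 0.09 SE, adjusted p = 0.00076). Ugt2b1 fell from 1332 and 1195 CPM to 343 and 356 CPM, while Ugt1a1, which conjugates bilirubin, gave 216 and 258 CPM against 213 and 219 CPM and did not pass. Among Nrf2 targets, which respond to oxidative stress, 4 of 24 rose and 1 fell, or 20.8% called against 24% of all genes tested. The rises included Nqo1, from 3.36 and 3.68 CPM to 9.53 and 8.27 CPM.

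Among bile acid genes, the rate-limiting enzyme did not pass and 2 enzymes of the alternative branch fell. Of 33 tested genes 3 rose and 7 fell, with a median log2 fold change of -0.08. Calls made up 30.3% of them, against 24% of all genes tested. Cyp7a1, the rate-limiting enzyme, gave 56.1 and 169 CPM in chow and 61.7 and 351 CPM on the high fat diet, so its replicates differed more than its diets, and its direction turned without high fat diet replicate 2 (log2 fold change -0.88, adjusted p = 0.342). Cyp8b1, the sterol 12-alpha-hydroxylase, gave 532 and 541 CPM against 515 and 385 CPM and did not pass. Cyp27a1, which opens the alternative pathway, fell from 612 and 508 CPM to 251 and 328 CPM, beside the fall of Cyp7b1 in the same branch. Akr1d1, the delta-4-3-oxosteroid reductase, rose from 98.2 and 106 CPM to 236 and 282 CPM (log2 fold change 1.34 ± 0.11 SE, adjusted p = 0.00307). The uptake transporter Slco1a1 fell from 814 and 763 CPM to 140 and 142 CPM, while Slc10a1, the main bile acid importer, and Abcb11, the export pump, did not pass. Nr1h4, encoding Fxr, gave 141 to 150 CPM in all 4 libraries, and Nr0b2, encoding Shp, 40.1 and 63.7 CPM against 45.3 and 30.8 CPM. Hnf4a, a master regulator of hepatocyte genes, fell from 909 and 867 CPM to 482 and 628 CPM (log2 fold change -0.68 ± 0.14 SE, adjusted p = 0.0233), and did not pass without high fat diet replicate 1 (-0.50, adjusted p = 0.0569).

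The share of glucose genes called, 23.8% of 42, was near the 24% of all genes tested. Pck1, the first step of gluconeogenesis, fell from 6261 and 5826 CPM to 2856 and 3927 CPM (log2 fold change -0.83 ± 0.16 SE, adjusted p = 0.0208), whereas G6pc, the last step, gave 396 and 646 CPM against 1028 and 830 CPM and passed with DESeq2 (adjusted p = 0.00194) and without chow replicate 2 (adjusted p = 0.00414) but not in the fit of all 4 libraries by edgeR (adjusted p = 0.0543). Pfkfb3, which sets the level of a glycolytic activator, fell from 102 and 79.2 CPM to 9.79 and 28.9 CPM. Gbe1 and Ugp2, both of glycogen synthesis, rose by 0.80 and 0.70 on the log2 scale. Of the genes tested 7 rose and 3 fell, with a median of 0.24. Without high fat diet replicate 2 the rises numbered 4, and Pck1 did not pass in the 26-library fit (adjusted p = 0.393).

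Of 19 tested clock genes 6 fell and 1 rose, or 36.8% called against 24% of all genes tested. The median log2 fold change of the clock genes was -0.28. The 26-library fit called 0 of them in either direction, and without chow replicate 2 the rises numbered 4. Nr1d1, the repressor Rev-erb alpha, went from 179 and 145 CPM to 82.7 and 49.9 CPM, and Bhlhe41 from 16.8 and 15.4 CPM to 6.12 and 2.17 CPM. The time of day at which the mice were killed is not given in the sources used here. Of 33 genes of the unfolded protein and amino acid stress responses 4 fell and 1 rose, with a median of -0.25, and the share called was 15.2% against 24% of all genes tested. The falls numbered 2 to 6 with 1 library left out and 7 with DESeq2. Asns had the largest change, and Mthfd2, another target of the amino acid response, went from 1.27 and 1.21 CPM to 0.430 and 0.511 CPM. Mthfd2 did not pass without high fat diet replicate 1 or 2 (-1.28 and -1.53, adjusted p = 0.0922 and 0.0558).

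Genes that mark the hepatocytes around the central vein fell more often than they rose, and those around the portal vein rose more often than they fell. Of 27 tested pericentral genes 14 fell and 3 rose, with a median log2 fold change of -0.58. That is 63% called, against 24% of all genes tested. Glul, glutamine synthetase, went from 455 and 412 CPM to 188 and 152 CPM (log2 fold change -1.35 ± 0.13 SE, adjusted p = 0.00404). Oat, ornithine aminotransferase, went from 1073 and 959 CPM to 391 and 295 CPM, and Slc1a2, a glutamate transporter, from 145 and 149 CPM to 44.0 and 31.5 CPM. The Wnt target Lgr5, which is highest near the central vein, fell by 1.32 on the log2 scale. Lect2, Nkd1 and Aldh1a1 were the members that rose, by 0.77, 1.39 and 0.72. Several pericentral members are P450 genes counted above.

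Of 25 tested periportal genes 9 rose and 2 fell, with a median of 0.12. Calls made up 44% of them, against 24% of all genes tested. Mfsd2a, a lysolipid transporter, went from 110 and 97.6 CPM to 384 and 370 CPM (log2 fold change 1.86 ± 0.10 SE, adjusted p = 0.000831), and Aldh1b1 from 30.5 and 42.4 CPM to 129 and 125 CPM. The amino acid enzymes Uroc1, Sds and Gls2 rose by 0.85, 0.64 and 0.56. The members that fell were Pck1 and Cdh1, with log2 fold changes of -0.83 and -1.72. Cyp2f2, Ass1, Asl, Arg1 and Cps1 did not pass (0.03, 0.12, 0.01, 0.06 and -0.49). The pericentral count was 9 without high fat diet replicate 1. In the 26-library fit 6 pericentral genes fell, 5 periportal genes rose, and Mfsd2a did not pass (adjusted p = 0.143). A change in the yield of cells from either zone and a change in expression within cells cannot be told apart in bulk RNA, and fewer cells of a type and less RNA per cell cannot be told apart for any cell type named here. Among 54 genes of the urea cycle and amino acid breakdown 10 rose and 6 fell, and the rises numbered 4 to 6 without either high fat diet library or chow replicate 2. The share of these genes called was 29.6%, against 24% of all genes tested. Csad, of taurine synthesis, fell from 143 and 128 CPM to 26.8 and 30.8 CPM.

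Complement and coagulation genes fell more often than they rose. Of 40 complement and coagulation genes 9 fell and 2 rose, with a median log2 fold change of -0.21. The share called, 27.5%, was near the 24% of all genes tested. C8b went from 547 and 465 CPM to 119 and 142 CPM (log2 fold change -1.95 ± 0.13 SE, adjusted p = 0.00148), and F11, coagulation factor XI, from 125 and 113 CPM to 66.3 and 64.5 CPM. Cfd, complement factor D or adipsin, rose from 0.0178 and 0.0473 CPM to 2.29 and 2.32 CPM, while the other adipocyte markers Adipoq, Lep, Retn and Plin1 were each under 0.1 CPM in every library. Acute phase genes had 6 rises and 6 falls among 37, or 32.4% called. The falls numbered 3 to 8 with 1 library left out, with 3 being the count without high fat diet replicate 1, and the 26-library fit gave 1 rise and 3 falls. Lcn2, an iron-binding antibacterial protein, rose from 11.1 and 7.65 CPM to 39.1 and 32.8 CPM. Serpina3k fell from 12790 and 13810 CPM to 4446 and 5372 CPM. Saa1, serum amyloid A, gave 234 and 51.3 CPM against 122 and 90.7 CPM. Its spread in chow exceeded the difference, and it passed in opposite directions without chow replicate 1 (log2 fold change 1.05, adjusted p = 0.0123) and without chow replicate 2 (-1.14, adjusted p = 0.00598).

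The 2 hepcidin genes went opposite ways. Of 30 tested genes of iron and heme handling 3 rose and 4 fell, with a median log2 fold change of 0.09. This share, 23.3%, was near the 24% of all genes tested. The 26-library fit gave 2 rises and 2 falls, and DESeq2 gave 3 and 6. Hamp, which encodes the hormone that limits iron uptake, fell from 153 and 185 CPM to 89.6 and 122 CPM (log2 fold change -0.67 ± 0.17 SE, adjusted p = 0.0406), beside the rise of Hamp2. The Id and Smad genes of this list did not move together. Id4 rose (log2 fold change 1.25, adjusted p = 0.0366), and Id2, Smad6 and Smad7 did not pass (-0.47, 0.56 and -0.53). The BMP targets Id1 and Id3 had log2 fold changes of -1.47 and -1.57, and Id1 did not pass without high fat diet replicate 1 (-1.5, adjusted p = 0.0572). The call for Hamp was lost without high fat diet replicate 1 (adjusted p = 0.112), without chow replicate 2 (adjusted p = 0.0781) and in the 26-library fit (adjusted p = 0.692).

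Markers of sinusoidal endothelial cells, stellate cells and macrophages were higher in the high fat diet libraries. Of all genes tested, 12.9% were raised. All 13 markers of sinusoidal endothelial cells rose, and their summed level was 84.6 and 86.4 CPM in chow against 207 and 208 CPM, or 2.43-fold. Of 10 tested stellate cell and fibroblast markers 8 rose, with sums of 24.1 and 14.9 CPM against 61.0 and 54.4 CPM. Of 13 Kupffer cell and macrophage markers 9 rose, with sums of 56.6 and 59.5 CPM against 91.0 and 104 CPM. Of 3 tested cholangiocyte markers 0 passed by edgeR, with sums of 21.2 and 20.1 CPM against 32.1 and 22.1 CPM, and Cftr had no read in any library. Of the lymphocyte and neutrophil markers, Cd3d, Ms4a1 and Ly6g had no read in any library, and the sums were 0.696 and 1.39 CPM against 2.19 and 2.50 CPM. Ptprc, which encodes the leukocyte antigen CD45, was the only 1 of them tested and rose from 0.642 and 1.18 CPM to 1.91 and 2.22 CPM (adjusted p = 0.0478). The sums of the 10 hepatocyte markers were 104900 and 105300 CPM against 97990 and 100800 CPM. On the scale of all 26 libraries the endothelial sum was 92.5 to 233 CPM in the hepatocyte libraries and 166 to 602 CPM in the 11 whole-liver controls. The other ranges did not overlap for stellate cells (16.4 to 68.3 against 182 to 475 CPM) and Kupffer cells (62.0 to 116 against 167 to 618 CPM). Nor did they for cholangiocytes (22.1 to 36.0 against 37.6 to 59.4 CPM) or lymphocytes and neutrophils (0.762 to 2.79 against 5.69 to 25.3 CPM).

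In 390 of the 1789 raised genes both chow libraries were under 50% of the lowest of the 11 whole-liver control libraries. The same chow values enter the fold change and so favour rises among such genes, and no comparison with the other genes is drawn from the count. The controls are whole tissue from other experiments. Their mice were aged 8 weeks (corn oil), 8 to 10 weeks (sham), 10 to 12 weeks (floxed chow) and 12 weeks (wild type). Tissue, age, feeding and experiment cannot be told apart, nor can genotype for the floxed mice. The count was chosen after the data were seen. The part of other cell types in the rises was not tested.

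**Figure D4:**
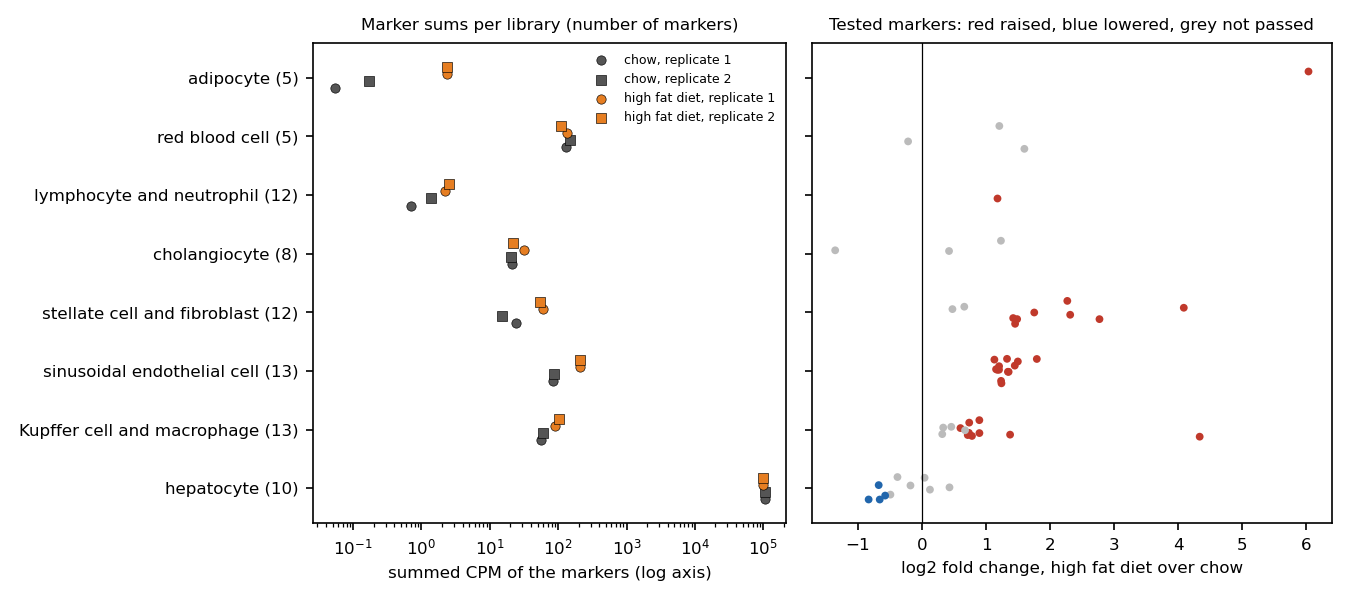
Summed CPM of the markers of 8 cell types in each library (left, log axis) and log2 fold change of each tested marker (right), with chow in grey and high fat diet in orange at the left, and raised markers in red and lowered markers in blue at the right. All 13 endothelial markers lie to the right of 0, while the 4 hepatocyte markers that changed lie to the left.

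Genes of antigen presentation and the interferon response rose more often than they fell, beside these markers. Of 39 tested members 17 rose and 1 fell, with a median log2 fold change of 0.65. The share called was 46.2%, against 24% of all genes tested. Gbp2, an interferon-induced GTPase, went from 1.12 and 1.26 CPM to 6.32 and 5.07 CPM (log2 fold change 2.25 ± 0.20 SE, adjusted p = 0.00322). Ifit3 and Ifit1, antiviral proteins, went from 3.87 and 5.22 CPM to 15.9 and 13.8 CPM and from 4.75 and 5.20 CPM to 14.6 and 13.9 CPM. Psmb9, a subunit of the immunoproteasome, went from 8.07 and 9.02 CPM to 20.6 and 17.8 CPM. The count of rises was 9 in the 26-library fit and 10 without high fat diet replicate 1.

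Cell cycle genes, which were at low levels, rose more often than they fell. Of 59 tested genes of DNA replication and mitosis 18 rose and 2 fell, with a median log2 fold change of 0.86. The share called was 33.9%, against 24% of all genes tested. The replication helicase genes Mcm3 and Mcm4 went from 1.30 and 1.44 CPM to 4.76 and 3.48 CPM and from 1.52 and 2.40 CPM to 5.39 and 5.12 CPM. Rrm2, a subunit of ribonucleotide reductase, fell from 8.80 and 7.82 CPM to 4.05 and 4.68 CPM, and did not pass without high fat diet replicate 1 (-0.83, adjusted p = 0.0564). The count of rises was 2 in the 26-library fit, 3 and 9 without high fat diet replicates 1 and 2, and 8 without chow replicate 1. The summed non-hepatocyte markers given above moved in the same direction, and their part in this result was not tested.

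Targets of p53 and genes of fetal or tumour liver also rose more often than they fell. Of 20 p53 targets 8 rose and 3 fell, or 55% called against 24% of all genes tested. The rises included Trp53inp1, from 178 and 133 CPM to 308 and 332 CPM, and Eda2r, from 0.785 and 0.568 CPM to 4.09 and 2.17 CPM. The falls were those of Bbc3, Sesn1 and Btg2 (log2 fold changes -0.835, -0.897 and -0.546), and Cdkn1a, Mdm2 and Bax did not pass (0.61, 0.05 and 0.22). In the 26-library fit 5 p53 targets rose and 0 fell, and Trp53inp1 did not pass (adjusted p = 0.271). Of 22 fetal and tumour-associated genes 12 rose and 2 fell, or 63.6% called, with a median log2 fold change of 1.13. Lgals1, which encodes galectin 1, went from 2.73 and 4.65 CPM to 29.8 and 23.7 CPM (log2 fold change 2.85 ± 0.26 SE, adjusted p = 0.00382). Anxa2 went from 0.553 and 0.694 CPM to 8.14 and 3.69 CPM, and Vim, a marker of mesenchymal cells, from 1.02 and 1.12 CPM to 3.60 and 3.33 CPM. In chow 5 of the 12 raised members (Pkm, Anxa2, Vim, S100a11 and Lgals3) were under 50% of the lowest whole-liver control. That is 41.7%, against 21.8% of all raised genes. The chow values enter both this count and the fold change, so no conclusion on cell types is drawn from it. Without high fat diet replicate 1 the rises numbered 3 of the p53 targets and 7 of the fetal genes. Lgals3 did not pass without high fat diet replicate 1 (1.69, adjusted p = 0.0608), nor S100a11 without it or chow replicate 1 (1.56 and 1.52, adjusted p = 0.192 and 0.0899).

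Immediate early genes, which respond to handling and growth signals within minutes, did not move as 1 group. Of 32 tested 6 rose and 9 fell, against 2 and 0 in the 26-library fit. In the fit of the 4 libraries 46.9% were called, against 24% of all genes tested. Klf2 and Klf4, which endothelial cells also express, went from 2.96 and 3.09 CPM to 8.77 and 9.65 CPM and from 1.52 and 1.58 CPM to 4.64 and 6.50 CPM. Klf10 fell from 59.7 and 79.4 CPM to 21.9 and 24.5 CPM and Myc from 6.09 and 8.47 CPM to 2.30 and 3.01 CPM.

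**Figure D5:**
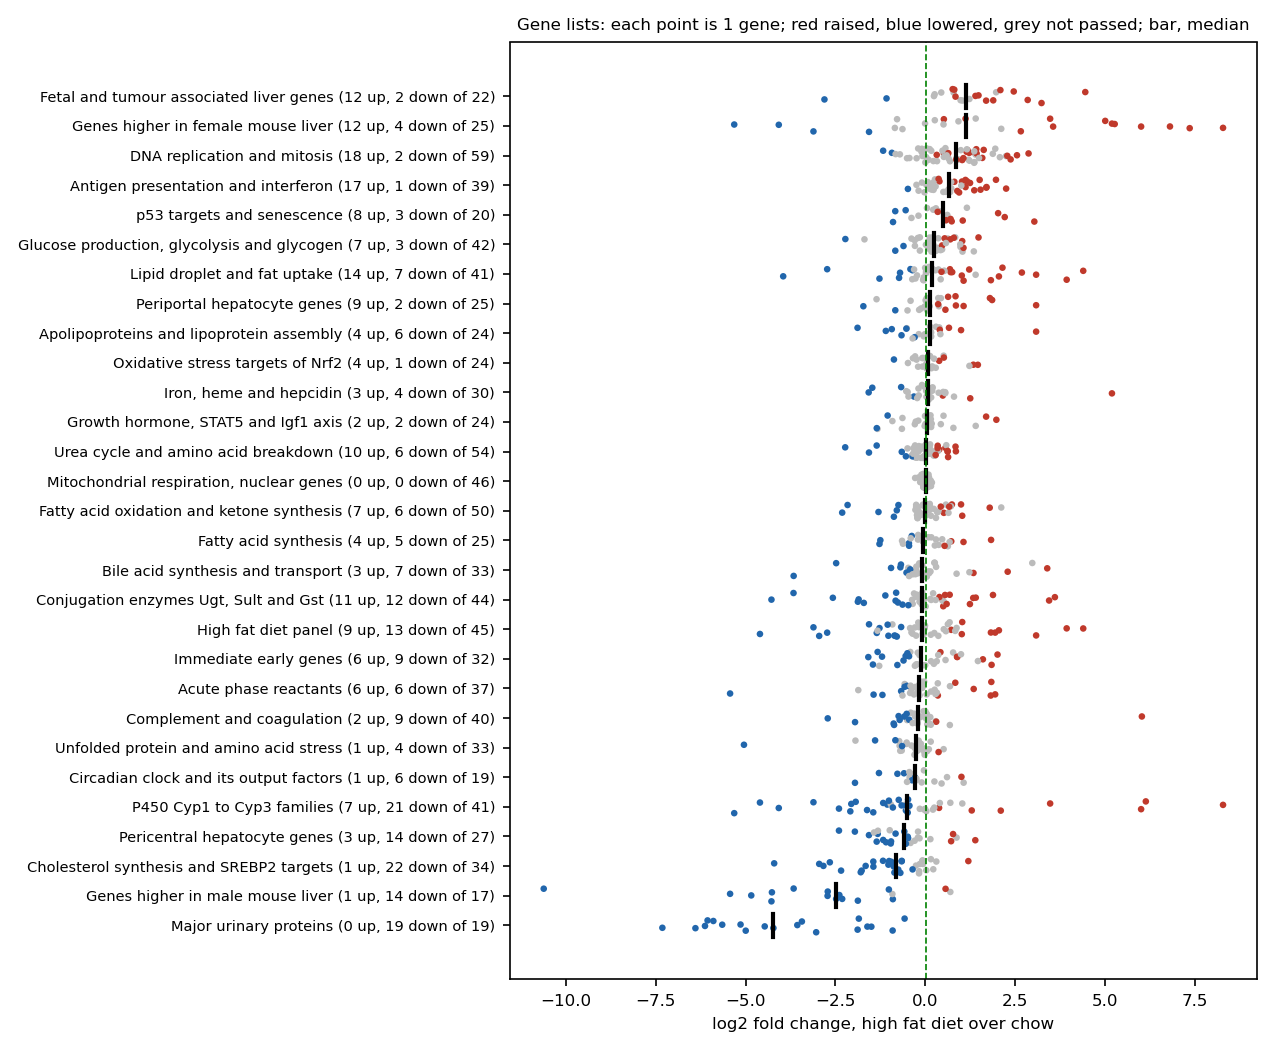
Log2 fold change of every tested member of the 29 gene lists, ordered by the list median (black bar), with raised genes in red, lowered genes in blue and the rest in grey, and the median of all genes tested as a dashed line at 0.01. Major urinary proteins lie farthest to the left, at a median of -4.23, and the fetal list farthest to the right, at 1.13.

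The high fat diet effect was compared with the other diet of the series, cholic acid in mice with floxed Fxr and Shp alleles (fl/fl Fxr fl/fl Shp, C57BL/6J, 10 to 12 weeks, whole liver, 8 to 10 h fast, 3 libraries each on cholic acid and chow). The effects differed for 858 of 13339 genes (6.43%) by the interaction contrast in edgeR, 500 of them higher on the high fat diet. Tissue, genotype, age and experiment differ between the diets, so their parts cannot be told apart. Among the genes named here Cyp7a1 and Cyp8b1 differed most. Cholic acid lowered them by 8.42 and 8.90 on the log2 scale, while neither passed on the high fat diet (differences 9.31 ± 1.48 SE and 8.67 ± 0.43 SE, adjusted p = 0.00917 and 2.35e-05). The difference for Cyp7a1 did not pass without chow replicate 1 (8.72, adjusted p = 0.0739), nor did that for Apoa4 without chow replicate 1 or 2 (3.86 and 3.58, adjusted p = 0.0684 and 0.0649). Cyp3a11 and the glutathione transferase gene Gstm3 rose on cholic acid by 1.84 and 6.22 and fell on the high fat diet, with differences of -6.42 and -7.03. Cd36 rose on the high fat diet and gave -0.07 on cholic acid (difference 4.49 ± 0.63 SE, adjusted p = 0.00585), and Apoa4 and Mogat1 also differed, by 3.77 and 6.65. Sqle, Idi1 and Cyp51 gave log2 fold changes of -3.17, -3.39 and -2.21 on cholic acid that did not pass. The count of differing genes moved widely with the libraries. It was 76 and 185 without chow replicates 1 and 2, 132 and 143 without high fat diet replicates 1 and 2, 529 and 1958 without floxed chow replicates 2 and 3, and 525 and 551 without cholic acid replicates 1 and 3. It was 1879 with DESeq2 and 2435 in the 26-library fit.

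The knockout of Fxr and Shp (Fxr-/- Shp-/- against wild type, C57BL/6J, 12 weeks, whole liver, fed ad libitum, 3 libraries each) was set beside the diet in the same way. Tissue, fasting, age and experiment differ between the 2 comparisons, so their parts cannot be told apart. Reads aligned to more than 1 place made up 43.2% to 44.1% of the wild-type reads and 25.5% to 26.9% of the knockout reads, and their part in the comparison was not tested. Effects differed for 2297 of 14280 genes (16.1%), 1158 of them higher on the high fat diet. Of the genes raised on the high fat diet and tested in both, 813 were also raised in the knockout, which is 49.6% of the high fat diet rises and 32.1% of the knockout rises. For falls the number was 587, or 39.2% and 22.6%, and 281 genes were called in opposite directions. Of all 12564 genes tested in both, the knockout raised 2529 (20.1%) and lowered 2593 (20.6%). The knockout was chosen for this comparison because it had the most rises in common with the diet in earlier results of these data. Its overlap with the diet is therefore no independent result. Cd36 rose by 4.40 on the diet and by 4.65 in the knockout, with no difference that passed (-0.26 ± 0.57 SE, adjusted p = 0.801). Sqle fell by 4.21 on the diet and rose by 4.88 in the knockout (difference -9.10 ± 0.57 SE, adjusted p = 4.11e-06). Idi1, Cyp51, Insig1 and Fasn also fell on the diet and rose in the knockout, with differences of -7.18, -5.82, -4.23 and -4.13. Asns differed by -7.90 and Cyp3a11 by -5.43 in the same sense. Apoa4 rose on the diet and gave 0.61 in the knockout, a difference of 2.47 ± 0.41 SE (adjusted p = 0.00267). The count of differing genes was 1282 in the 26-library fit and 1269 without high fat diet replicate 2, 1428 without chow replicate 2 and 1440 without chow replicate 1.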

How the data were processed

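The deposited table holds a count of reads per gene for each library, made by the authors from stranded mRNA libraries. Per the submitters' processing notes, bcl2fastq 2.17.1.14, Trimmomatic, STAR 2.4.2a, Picard 1.119 and HTSeq were used with GRCm38/mm10. The annotation release and the strand setting of the counting are not given in the sources used here. Of 47643 genes, those passing edgeR's expression filter (minimum count 10, minimum total 15) were kept, scaled by TMM and tested by edgeR 4.0.16's quasi-likelihood F test (R 4.3.3) with Benjamini-Hochberg adjustment at 0.05. The SE is the log2 fold change over the square root of F. Interaction contrasts compared the diet effect with the cholic acid and knockout effects, and DESeq2 1.42.0 was an alternative. The scripts were tested on simulated counts. CPM intervals and floors cover counting error only. An exact permutation of 2 against 2 libraries cannot go below 0.333, so single genes were tested only in the model across genes.

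The gene lists, markers and high fat diet panel were chosen with earlier results of these data known. Genes were named by rule as the 12 largest rises and 12 largest falls, up to 5 called members of each list with the largest changes, the panel, and the 6 largest differences in each direction of each interaction. Other genes were named after their values were seen, and some genes under the rule are not reported here. Promoters came from RefSeq (GRCm38.p6), where the table is not complete.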

Additional observations from a re-analysis of the deposited data

Results flagged for a closer look

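Reads that fell on more than 1 gene were assigned to no gene by the authors' counting and entered no test. They made up 2.08% of the reads of the high fat diet libraries on average (2.12% and 2.03%), above the 2.01% and 1.88% of the chow libraries. The chow and high fat diet ranges did not overlap, by a margin smaller than the gap between the replicates of either group.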

How the results depend on the processing

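With all 26 libraries in 1 fit, 1735 genes changed on the high fat diet, 1187 raised and 548 lowered, and the counts of differing genes were 2435 against cholic acid and 1282 against the knockout. Of the 3333 genes called, 1557 were also called in that fit and 0 had the other sign. DESeq2's Wald test gave 3336 changed genes, and 1879 that differed from cholic acid. Leaving out 1 library at a time gave 1141 to 2644 changed genes, 619 to 1415 raised, 522 to 1229 lowered and 693 to 1279 changed at least 2-fold. It gave 76 to 1958 genes that differed from cholic acid and 1269 to 2768 that differed from the knockout. The number of changed genes was 3400 with DESeq2's size factors, 3222 at a mean count of at least 10, 3221 with no filter and 3318 after thinning to the smallest library. The first 2 of these were also run for the counts of differing genes, which moved by less than 1.5 times, and the last 2 were not.

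Replicate numbers in the hepatocyte libraries are only shared numbers, and deviations of same-numbered libraries correlated at 0.094. A replicate block gave 3693 changed genes, while 446 differed from cholic acid and 1858 from the knockout.

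Every value that reversed belongs to a gene or difference that did not pass in the fit reported. In the 26-library fit the log2 fold change was 0.024 for Cux2, 0.011 for Igf1 and 0.027 for Nr1h4. Nr1h4 was also 0.001 with a mean count of at least 10 and 0.007 after thinning. With 1 library left out, log2 fold changes ran from -0.025 to 0.071 for Abcg5, -0.159 to 0.018 for Acat2, -0.011 to 0.081 for Alb, -0.78 to 0.579 for Cux2, -0.125 to 1.09 for Cyp4a14, -0.877 to 1.87 for Cyp7a1, -0.546 to 0.248 for Fgf21 and -0.243 to 0.174 for Igf1. They ran from -0.575 to 0.053 for Igfbp1, -0.234 to 0.027 for Nnmt, -0.052 to 0.043 for Nr1h4, -0.055 to 0.627 for Nr1i3 and -1.14 to 1.05 for Saa1, and from -0.863 to 0.858 for the Cd36 difference from the knockout. The cause was not tested. With 2 libraries in each group, the test rests on few degrees of freedom, and the lone library left in a group is assumed to vary like the others. Genes at or under 3 counts, 0.0403 to 0.0535 CPM, lie at the limit of the depth.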
